A study of Mus musculus with 6 samples.

Results

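The replication-dependent histone genes were described here through the peaks of accessible chromatin assigned to them. They were chosen by name: every consensus peak whose nearest annotated gene had a symbol starting with Hist1h, Hist2h, Hist3h or Hist4h. This gave 55 peaks at 39 genes, of 51775 consensus peaks in all. The peaks came from ATAC-seq, in which a transposase inserts adapters into open DNA, of natural killer (NK) cells sorted from the spleen of C57BL6 mice as CD3-CD5- NK1.1+ NKp46+ cells. The mice were wildtype or Rroid deficient, Rroid being a long noncoding RNA named for the regulatory element it marks. Each genotype gave 3 libraries, with 50000 cells of it used, and neither the age of the animals, nor the way the locus was disrupted, nor whether the libraries came from separate animals is in the labels. The p-values therefore measure only the spread between these libraries, which may be technical.

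Replication-dependent histone genes encode the core histones H2A, H2B, H3 and H4, which form the nucleosome, and the linker histone H1, which binds the DNA between nucleosomes. They are short genes without introns, lie in clusters, and are switched on together in S phase at a nuclear body, the histone locus body, organised by the coactivator NPAT. Their mRNAs end in a stem-loop in place of a poly(A) tail, and their copies are so alike that short reads can fit more than 1 of them.

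The Hist1 cluster held 44 of the 55 peaks, all on chromosome 13 in 3 stretches (mm9): 13 peaks at chr13:21801690-21948136, 5 at chr13:22118091-22143403 and 26 at chr13:23608799-23855896. Hist2 held 7 peaks at chr3:96023007-96082704, Hist3 held 2 at chr11:58761791-58769032 and Hist4 held 2 at chr6:136741594-136753306. By product, 20 peaks belonged to H4 genes, 13 to H2A, 13 to H2B, 5 to H3 and 4 to H1. The annotation placed 29 peaks in the promoter-TSS class, 15 between genes, 5 at transcription termination sites, 3 in exons, 2 in introns and 1 in a 3' UTR, and 37 lay within 1000 bp of the annotated start. For 30 genes there was 1 peak, and 9 genes had more, up to 5. All values are normalized reads per peak, that is, the authors' read counts divided by 1 factor per library, and they are not divided by length. The median histone peak had a mean of 1994 normalized reads and a width of 1572 bp, against 194.6 normalized reads and 964 bp over all peaks.

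Upstream sequences of 6 genes show what the members share and where they are hard to tell apart. They come from RefSeq promoter windows on GRCm38.p6, another build than the mm9 of the peaks, so that window and peak coordinates are not on 1 scale. A window was found for 35 of the 39 genes, and Hist1h2bc, Hist1h3a, Hist1h3f and Hist2h4 had none. Each sequence is written 5′ to 3′ on the gene's strand and ends at the base before the transcription start. Capitals mark 4 motifs in either orientation: CCAAT (reverse ATTGG), the box bound by NF-Y; TATAAA (reverse TTTATA); ATTTGCAT (reverse ATGCAAAT), the octamer known from H2B promoters; and AAACACA (reverse TGTGTTT), the H1 box. Overlapping matches were each counted. The first pair is Hist1h4m and Hist1h4n, H4 genes whose upstream sequences are copies of each other.
Hist1h4m (chr13:21811546-21811745, plus strand): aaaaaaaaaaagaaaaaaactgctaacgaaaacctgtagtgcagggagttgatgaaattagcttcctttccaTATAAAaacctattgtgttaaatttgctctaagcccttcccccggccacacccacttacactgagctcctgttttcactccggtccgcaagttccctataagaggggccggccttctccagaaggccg
Hist1h4n (chr13:21832198-21832397, minus strand): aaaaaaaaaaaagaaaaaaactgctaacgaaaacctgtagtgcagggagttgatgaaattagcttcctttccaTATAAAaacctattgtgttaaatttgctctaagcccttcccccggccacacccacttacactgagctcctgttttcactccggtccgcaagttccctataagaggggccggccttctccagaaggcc
The next 3 are an H1 pair and an H2A gene from chromosome 13 that recur in the results.
Hist1h1c (chr13:23738607-23738806, plus strand): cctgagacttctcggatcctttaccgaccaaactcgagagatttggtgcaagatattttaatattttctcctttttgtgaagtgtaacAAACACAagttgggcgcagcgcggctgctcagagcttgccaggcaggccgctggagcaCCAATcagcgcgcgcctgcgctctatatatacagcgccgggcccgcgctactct
Hist1h1d (chr13:23554832-23555031, plus strand): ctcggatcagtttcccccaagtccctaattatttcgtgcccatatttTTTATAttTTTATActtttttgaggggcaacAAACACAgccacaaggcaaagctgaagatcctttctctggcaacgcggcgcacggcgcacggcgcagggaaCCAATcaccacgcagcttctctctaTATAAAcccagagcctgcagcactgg
Hist1h2ai (chr13:21716212-21716411, plus strand): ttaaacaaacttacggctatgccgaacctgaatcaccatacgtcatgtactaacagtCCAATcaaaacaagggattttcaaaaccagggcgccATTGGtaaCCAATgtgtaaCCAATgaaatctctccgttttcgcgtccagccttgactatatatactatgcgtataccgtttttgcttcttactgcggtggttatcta
The last is an H2A gene of the chromosome 3 cluster, cut to 191 bases where the divergent gene H2bc21 begins.
Hist2h2ac (chr3:96220881-96221071, minus strand): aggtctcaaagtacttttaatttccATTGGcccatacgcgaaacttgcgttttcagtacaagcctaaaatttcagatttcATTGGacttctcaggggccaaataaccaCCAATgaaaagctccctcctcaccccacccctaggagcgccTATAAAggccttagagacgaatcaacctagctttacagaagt

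In the 250 bases before the start, CCAAT occurred in 27 of 35 histone genes (77.1%), against 33.9% of the 32851 windows of that length in the table. It was present in 11 of 11 H2A genes, 9 of 9 H2B genes, 3 of 3 H1 genes and 2 of 3 H3 genes, but in 2 of 9 H4 genes. TATAAA occurred in 14 of 35 (40%), against 12.4% of all windows. The octamer occurred in 9 of 35 (25.7%, 5 H2A and 4 H2B genes), against 1.60% of all windows. The H1 box occurred in 5 of 35 (14.3%), against 6.25%, and the 5 included 3 of 3 H1 genes. CCAAT occurred in 22 of 28 Hist1 genes and in 5 of 7 genes of Hist2 to Hist4. A match is a description of the letters and shows no binding.

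Depth differed between libraries. The reads in peaks, recovered from the values, were 39847736 to 47939665 in the wildtype libraries and 27572006, 41167610 and 30762426 in the Rroid-deficient libraries 4, 5 and 6, so that libraries 4 and 6 were the shallowest. No peak was listed at 0 and the lowest value was that of 1 read. Whether 0 reads were listed as 1 is not given in the sources used here. Libraries of 1 genotype differed by more than counting noise (chi-square per degree of freedom 3.45 to 9.60), so no library was treated as deposited more than once. All 5 NK markers (Ncr1, Klrb1c, Eomes, Tbx21 and Prf1) had a peak within 1000 bp of their start, with summed values of 15560 to 18322 in wildtype and 12645 to 15359 in Rroid-deficient libraries, and 3 of the 5 were called lower. Of 6 T cell markers, Cd3d, Cd3e, Cd4 and Cd8a had no peak so near. The other two, Cd3g and Cd5, were called higher, with summed values of 96.7 to 173.6 in wildtype and 432.3 to 516.2 in Rroid-deficient libraries. Peaks that near stood at 1 of 5 B cell markers (45.4 to 63.5 in wildtype, 59.97 to 90.2 in Rroid-deficient libraries) and 1 of 4 erythroid markers (127.7 to 235.97 and 168.5 to 196.3), neither of them called. Of 5 myeloid markers 3 had one (793.4 to 961.1 and 640.5 to 700.02 summed), with 1 called lower. The part that these T cell peaks play in the histone results was not tested.

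Histone peaks were mostly less accessible in Rroid-deficient NK cells, and 34 of the 35 calls lay on chromosome 13. With limma on log2(value + 1) and Benjamini-Hochberg adjustment over all peaks, 35 of the 55 histone peaks were called lower at an adjusted p under 0.05 and 0 were called higher. On recovered reads edgeR called 36 lower and DESeq2 35, and both called 0 higher. In limma 1 was higher at an unadjusted p under 0.05. Over all 51775 peaks, 12.1% were called lower and 13.8% higher. Histone peaks had a median log2 fold change of -0.40, all peaks one of -0.01, and 52 of the 55 were below 0. In 35 histone peaks every Rroid-deficient library was below every wildtype library, an arrangement that held for 20.1% of all peaks. In 1 histone peak, of Hist1h2br, the order was the reverse, as it was in 10373 of all 51775 peaks. All 55 passed the filter on low values, 1 of them (Hist1h4n, described below) only through its wildtype libraries. Without libraries 4 and 6 (a setting added later, with the values known) 14 histone peaks were called lower and the median was -0.31. That fit has 1 Rroid-deficient library, whose spread is assumed to be that of the wildtype ones. In sorted cells taken in bulk, fewer cells with an open site and less opening per cell cannot be told apart.

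**Figure D1:**
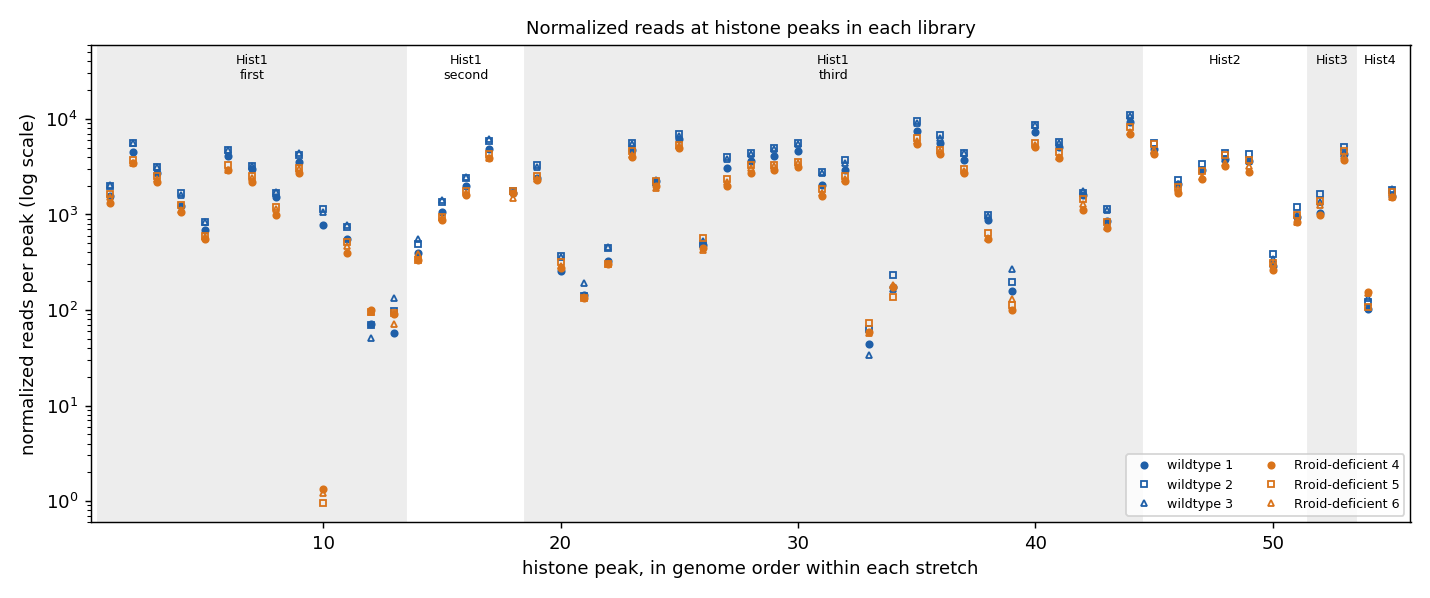
Normalized reads per peak (log scale) at each of the 55 histone peaks, ordered by stretch (Hist1 first, then Hist2 to Hist4) and by position within it, with 1 symbol for each of the 6 libraries and shading for the stretches. Orange symbols (Rroid-deficient) sit just under blue ones (wildtype) along most of Hist1, and at the Hist1h4n peak in the first stretch they fall to 0.952 to 1.33 normalized reads.

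On chromosome 13, 34 of the 44 Hist1 peaks were called lower, with a median log2 fold change of -0.44. Summed over the 44 peaks, the wildtype libraries 1, 2 and 3 had 113433, 136752 and 134437 normalized reads and the Rroid-deficient libraries 4, 5 and 6 had 86211, 98099.5 and 91086. The groups did not overlap, although wildtype library 1 lay below the other two wildtype libraries. The Rroid-deficient mean was 71.6% of the wildtype mean. The 3 stretches gave like counts: 11 of 13, 4 of 5 and 19 of 26 peaks were called lower, with medians of -0.44, -0.44 and -0.43 and sums at 69.6%, 75.4% and 71.7% of wildtype. Apart from the Hist1h4n peak described below, the 33 called Hist1 peaks kept 55.0% to 80.7% of their wildtype mean. The calls were denser at start sites: 27 of 29 Hist1 peaks within 1000 bp of a start were called lower, against 7 of 15 farther away, whose values were also smaller (median 354.3 against 3498 normalized reads).

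Outside chromosome 13, 1 of 11 peaks was called lower, a share near the 12.1% over all peaks. Of the 11, 10 had a log2 fold change below 0. Over the alternative fits 0 to 4 of them were called lower, the 4 without Rroid-deficient library 5. The summed values were 25479, 30196 and 26066 in wildtype and 21872, 27224 and 23797 in Rroid-deficient libraries, and the groups overlapped. The mean was 89.2% of wildtype and the median log2 fold change -0.15. By locus, 1 of 7 Hist2 peaks, 0 of 2 Hist3 peaks and 0 of 2 Hist4 peaks were called by limma (0 of 2 and 0 of 2 also at an unadjusted p under 0.05). The difference between Hist1 and the other clusters was not tested, and is given as a ratio that does not depend on the scaling of the libraries. Hist1 reads were 4.45, 4.53 and 5.16 times those of Hist2 to Hist4 in the wildtype libraries and 3.94, 3.60 and 3.83 times in the Rroid-deficient ones. These ratios did not overlap between genotypes. As shares of all reads in peaks, Hist1 took 0.295%, 0.340% and 0.345% in wildtype and 0.236%, 0.250% and 0.245% in Rroid-deficient libraries, again without overlap. The shares of Hist2 to Hist4 were 0.0663%, 0.0750% and 0.0670% in wildtype and 0.0598%, 0.0695% and 0.0640% in Rroid-deficient libraries, and overlapped.

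**Figure D2:**
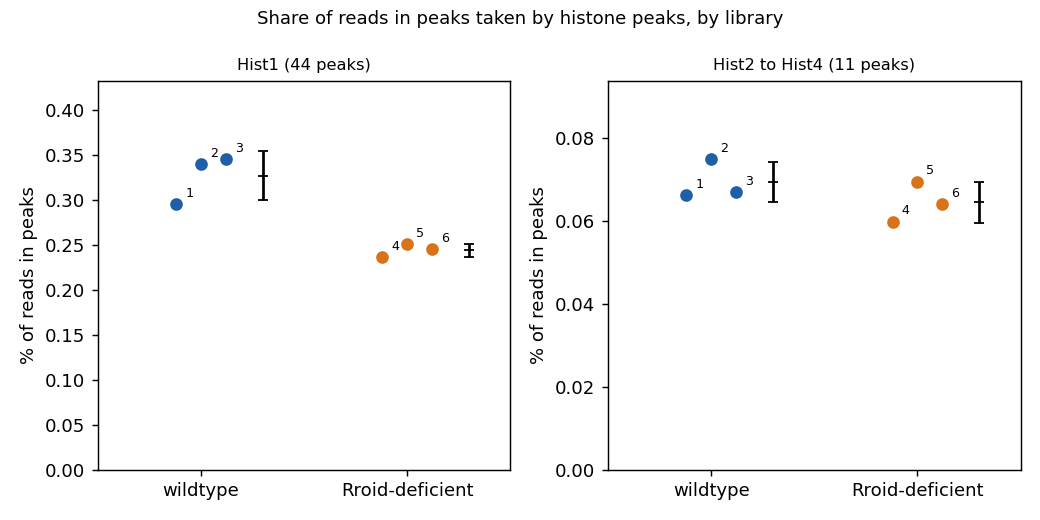
Share of reads in peaks (%) at the 44 Hist1 peaks (left) and the 11 peaks of Hist2 to Hist4 (right), with 1 numbered point per library and the mean and SD of 3 beside them. The Hist1 shares of the Rroid-deficient libraries, 0.236 to 0.250%, lie below all wildtype shares, and those of Hist2 to Hist4 overlap.

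The peaks of linker histone genes had the lowest median change among the products. All 4 H1 peaks, at Hist1h1b, Hist1h1c and Hist1h1d, were called lower, with a median log2 fold change of -0.67 and a sum at 65.8% of wildtype. Hist1h1c, a linker histone gene, had 7228, 8711 and 8701 normalized reads in wildtype and 5064, 5563 and 5327 in Rroid-deficient libraries at the peak over the gene (chr13:23830304-23832273). All 3 Rroid-deficient values lay well below the lowest wildtype value (log2 fold change -0.62, SE 0.08, limma adjusted p = 3.24e-05). Hist1h1d, another linker histone gene, had 3036, 3983 and 3839.6 in wildtype and 1997, 2348 and 2187 in Rroid-deficient libraries (chr13:23646568-23648434). The groups were again apart, with wildtype library 1 nearest to the Rroid-deficient values (log2 fold change -0.73, SE 0.10, limma adjusted p = 5.88e-05). The H1 box and CCAAT stand in the printed upstream sequence of both genes.

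The remaining H1 peaks were named after their values were seen, to account for the class. Hist1h1b, the third linker histone gene, had 3011, 3182 and 3255 in wildtype and 2196, 2537 and 2417 in Rroid-deficient libraries, without overlap (log2 fold change -0.40, SE 0.08, limma adjusted p = 0.00196). A small intergenic peak at -6395 bp from the Hist1h1c start had 156.7, 194.9 and 270.6 in wildtype and 99.5, 113.3 and 129.4 in Rroid-deficient libraries. It was the deepest change in the family after the Hist1h4n peak, at 55.0% of wildtype (log2 fold change -0.83, SE 0.21, limma adjusted p = 0.00687), and its wildtype values were spread widely.

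Of the Hist1 peaks at H2A genes, 9 of 10 were called lower, and at H2B genes 6 of 9. H2A and H2B pair as a dimer, and many of their genes lie head to head over 1 promoter, so that a single peak can serve both. The peak at Hist1h2ai (chr13:21806865-21809788), a gene whose RefSeq window overlaps that of Hist1h2bl on the opposite strand, had 4523, 5654 and 5546 in wildtype and 3439, 3711 and 3444 in Rroid-deficient libraries. The groups did not overlap (log2 fold change -0.56, SE 0.09, limma adjusted p = 0.000182). Hist1h2ad (chr13:23665536-23667935) had 4581, 5653 and 5421 in wildtype and 3142, 3561 and 3483 in Rroid-deficient libraries. Here too every Rroid-deficient value was below every wildtype one (log2 fold change -0.62, SE 0.09, limma adjusted p = 7.46e-05).

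At the H2B gene Hist1h2be (chr13:23712432-23714802) the values were 7559, 9604 and 9098 in wildtype and 5448, 6294 and 5911 in Rroid-deficient libraries. This peak lost reads in all 3 Rroid-deficient libraries, by log2 -0.57 (SE 0.09, limma adjusted p = 0.00016). Hist1h2bn (chr13:21845093-21846686) had 4046, 4687 and 4749.9 in wildtype and 2912, 3329 and 2943 in Rroid-deficient libraries, likewise without overlap (log2 fold change -0.55, SE 0.09, limma adjusted p = 0.000175). The uncalled H2A and H2B peaks of Hist1 were those of Hist1h2af and Hist1h2bj, with log2 fold changes of -0.14 and -0.09, and 2 low peaks of Hist1h2br.

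All 4 Hist1 peaks at H3 genes were called lower, with a median log2 fold change of -0.45 and a sum at 73.9% of wildtype. Hist1h3a (chr13:23852742-23855896), named after its values were seen, had 9228, 10896 and 10667 in wildtype and 6879.9, 8143 and 7256 in Rroid-deficient libraries. All 3 Rroid-deficient libraries were below the wildtype range (log2 fold change -0.47, SE 0.08, limma adjusted p = 0.000494). The single H3 peak elsewhere, at Hist2h3c2 on chromosome 3, had 2084, 2309 and 2092 in wildtype and 1691, 1947 and 1844 in Rroid-deficient libraries. Its groups did not overlap either, at a log2 fold change of -0.24 (SE 0.09), and it missed the limit with a limma adjusted p of 0.05695.

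Among H4 genes, 11 of 17 Hist1 peaks were called lower, with a median log2 fold change of -0.41. Hist1h4c (chr13:23789200-23790762) had 3725, 4445 and 4443 in wildtype and 2687, 3003 and 2875 in Rroid-deficient libraries, without overlap (log2 fold change -0.55, SE 0.09, limma adjusted p = 0.000183). The called histone peak nearest to the limit and the uncalled one nearest to it both belonged to Hist1h4h. The peak at chr13:23618151-23618681 had 325.9, 442.8 and 451.3 in wildtype and 299.7, 302.7 and 303.5 in Rroid-deficient libraries (limma adjusted p = 0.0458), and was called in 8 of 16 alternative fits. The peak at chr13:23608799-23611792 had 2386, 3324 and 3143 in wildtype and 2288, 2519.8 and 2349 in Rroid-deficient libraries (log2 fold change -0.29, limma adjusted p = 0.0541). In the second, wildtype library 1 fell within the Rroid-deficient range.

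**Figure D3:**
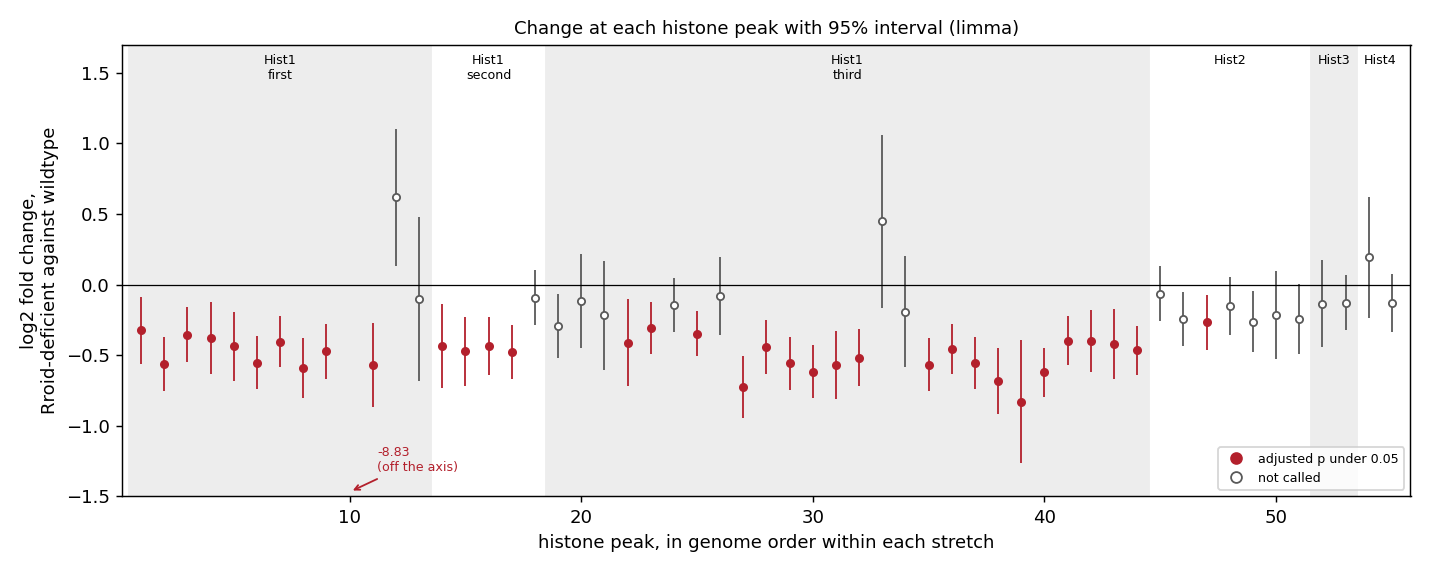
Log2 fold change (Rroid-deficient against wildtype) with its 95% interval from limma for the 55 histone peaks, by stretch with Hist1 first; filled points passed an adjusted p of 0.05. The filled points lie between -0.83 and -0.27, apart from the Hist1h4n peak at -8.83, which is off the axis, and 1 of them is outside Hist1.

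A single histone peak vanished. The peak at chr13:21903365-21905095, with Hist1h4n as its nearest gene, had 780.9, 1148 and 1050.0 normalized reads in wildtype and 1.33, 0.952 and 1.21 in Rroid-deficient libraries. As recovered reads these were 877, 1366 and 1075 in wildtype, and 1 read in each Rroid-deficient library, the lowest value listed in any library. The 3 Rroid-deficient reads against 3318 wildtype reads came to 0.115% of the wildtype rate, with libraries weighted by the authors' factors. The exact 95% interval (conditional Clopper-Pearson) was 0.0236% to 0.335% and covers counting error only. It takes each listed 1 as a read that was counted, and its lower end has no meaning if 0 reads were listed as 1. In limma the fitted log2 fold change was -8.83, and it depends on the pseudocount, moving from -9.21 at a pseudocount of 0.5 to -7.32 at 5. The peak is among the histone peaks called lower, but it passed the filter only through its wildtype libraries. Its Rroid-deficient values all stand at the floor of 1 read. Its SE and p therefore measure no spread among those libraries and are not given. The next lowest histone peak kept 55.0% of its wildtype mean, so the vanished peak stood alone in the family.

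It also stood nearly alone in the table. Of 51775 peaks, 13 had at most 10 reads in every Rroid-deficient library and at least 30 in every wildtype library, limits chosen with the Hist1h4n values known. Of these, 12 lay in the stretch of chromosome 12 whose nearest gene is Gm17746, and the Hist1h4n peak was the remaining 1. With the limits reversed, 7 peaks appeared in Rroid-deficient libraries, and 0 of them were histone peaks. The Hist1h4n peak was the only 1 of the 51775 at 1 read in all 3 Rroid-deficient libraries.

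The annotation of the vanished peak is ambiguous. It was annotated as the termination site of a transcript that the RefSeq table gives as Hist1h4m, while its nearest start, 577 bp away, was that of Hist1h4n. A second peak of Hist1h4n, at chr13:21923149-21924315 and 295 bp from its start, had 550.3, 732.6 and 769.7 in wildtype and 399.2, 509.3 and 463.1 in Rroid-deficient libraries. This second copy was present in every library and kept 66.8% of its wildtype mean, within the range of the other called Hist1 peaks (log2 fold change -0.57, SE 0.14, limma adjusted p = 0.00622). The centres of the 2 peaks are 19502 bp apart. For 8 of the 9 genes with several peaks, the distances to the start fit a single start site within 2 bp. For Hist1h4n they do not, which places the transcript at 2 sites in the annotation used for the table. The implied starts are 19784 bp apart if both lie on the plus strand and 19220 bp apart if both lie on the minus strand. Starts on opposite strands were not computed.

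The sequences of the pair are nearly the same. With the 1-base offset seen in the printed sequences, the Hist1h4m and Hist1h4n windows differed at 1 of 299 bases (99.7% identity), and at 0 of those before the start. Of the 50-base words in each window, 94.0% also occurred in the other. A read from such a stretch fits both sites, and its placement depends on how the aligner treats reads with several matches, which was not given in the sources used here, nor was the read length. The part of read assignment in the loss was not tested.

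Across the family, such sharing was the exception within these windows. Of 36 RefSeq windows of histone genes with a peak, 6 shared any 50-base word with the window of another gene. This is a larger share than the 7.86% of all windows in the table. Hist1h2br shared all of its 50-base words, Hist1h4n 94.0%, Hist2h3c2 74.1%, Hist2h2aa1 67.7%, and Hist1h4j and Hist1h4k 11.6% each. Genes whose windows shared none held 43 peaks, of which 27 were called lower, all 27 of them among 35 Hist1 peaks. Genes with a shared word held 8 peaks, of which 5 were called lower, and the 4 genes without a window held 4 peaks, of which 3 were called lower. The printed windows of Hist1h1c, Hist1h1d and Hist1h2ai are among those that shared none. The windows span 300 bases and the peaks are wider, so this comparison does not cover whole peaks. Windows were compared only with other windows, and 18 of the 55 peaks lay farther than 1000 bp from a start. The counts by gene therefore do not show which peaks were free of shared sequence.

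The log2 fold changes above 0, none of them called, belonged to low peaks. An intergenic peak at chr13:21944020-21944892 lay 18844 bp from the start of its nearest gene, the H2B gene Hist1h2br. It had 71.2, 68.9 and 50.8 in wildtype and 100.8, 95.2 and 95.5 in Rroid-deficient libraries. The Rroid-deficient values were all above the wildtype ones, and the change missed the limit (log2 fold change 0.62, SE 0.23, limma adjusted p = 0.0577), which it passed without wildtype library 1 (adjusted p = 0.0470, in a range of 0.0470 to 0.2997 over the alternatives). A peak at chr13:23684827-23685432 lay 11658 bp from the start of its nearest gene, Hist1h4d. It had 43.6, 63.0 and 34.2 in wildtype and 58.3, 73.3 and 56.8 in Rroid-deficient libraries, with overlap (log2 fold change 0.45, SE 0.29, limma adjusted p = 0.277).

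In Hist2 to Hist4, the single call was Hist2h2aa1 (chr3:96048743-96050894), an H2A gene with a near copy, H2ac19, in RefSeq. It had 2957, 3398 and 2937 in wildtype and 2372, 2863 and 2488 in Rroid-deficient libraries, without overlap (log2 fold change -0.27, SE 0.09, limma adjusted p = 0.0422), and was called in 9 of 16 alternative fits. The 3 uncalled histone peaks with the highest means, not divided by length, were all here. Hist2h2ac (chr3:96023007-96025775) had 4826, 5603 and 4652 in wildtype and 4326, 5408 and 4698 in Rroid-deficient libraries. Its groups overlapped, and the 95% interval of the log2 fold change ran from -0.26 to 0.13. Hist3h2a (chr11:58767170-58769032), an H2A gene of chromosome 11, had 4250.1, 5043 and 4257 in wildtype and 3734, 4606 and 4059 in Rroid-deficient libraries. These overlapped too, with an interval from -0.32 to 0.07. Hist2h4 (chr3:96065987-96067968), an H4 gene, had 3809, 4387 and 3837 in wildtype and 3221, 4182 and 3482 in Rroid-deficient libraries, with overlap and an interval from -0.35 to 0.05. Their signs turned in at least 1 alternative setting.

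Tall peaks drifted slightly down in the whole table, so histone peaks were set beside peaks of like height. Of all peaks with a mean of 500 or more, 17.6% were called lower, and of the histone peaks of that height 31 of 42, with Hist1 alone at 30 of 33. Between 2000 and 4000 normalized reads, 11 of 15 histone peaks were called lower, against 14.6% of 3733 other peaks, and the medians were -0.44 and -0.08. Between 4000 and 8000, it was 9 of 11 against 16.5% of 1656, with medians of -0.46 and -0.12. Below 500, 4 of 13 histone peaks were called, against 9.62%. Of all promoter-TSS peaks, 8.8% were called lower. Per 1000 reads in other promoter-TSS peaks, Hist1 had 8.70, 9.82 and 9.96 reads in wildtype and 7.01, 7.27 and 7.21 in Rroid-deficient libraries, without overlap. With cyclic loess, which removes shifts that depend on height, 32 histone peaks were called lower.

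**Figure D4:**
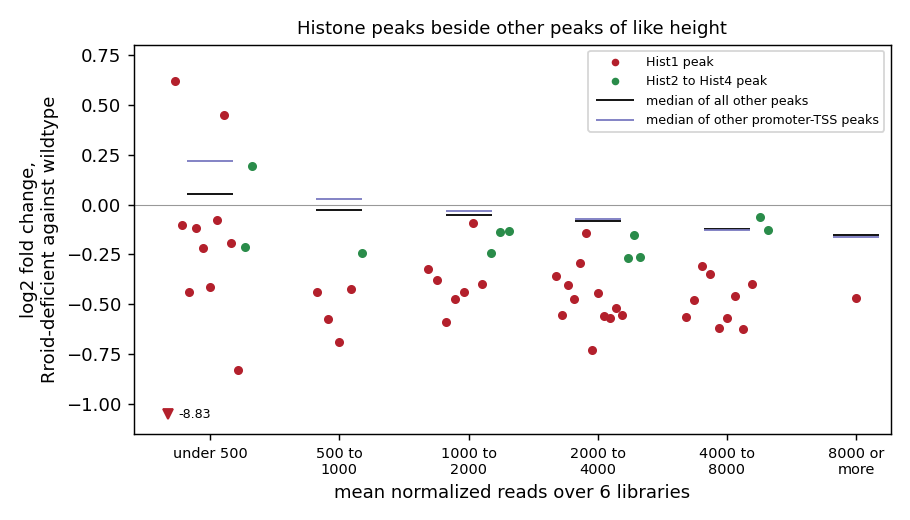
Log2 fold change of each histone peak by class of mean normalized reads, with the median of all other peaks (black) and of other promoter-TSS peaks (blue) of that class. Hist1 peaks lie below both lines in every class from 500 upward, and the triangle stands for the Hist1h4n peak at -8.83.

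Some peaks of other genes inside the chromosome 13 span fell as well. Between the first and the last Hist1 peak, 10 of 29 peaks of other genes were called lower and 1 higher, with a median log2 fold change of -0.28, and of those with a mean of 500 or more 9 of 14 were called lower. The smallest p belonged to an intergenic peak near Prss16, a serine protease gene (chr13:22087266-22089287), with 1027, 1014 and 1054 in wildtype and 773.1, 678.7 and 668.6 in Rroid-deficient libraries. Its groups were far apart (log2 fold change -0.55, limma adjusted p = 0.000881). The single higher one lay near Zfp184, a zinc finger gene (chr13:22028728-22029272), with 52.5, 84.0 and 51.8 in wildtype and 122.0, 114.2 and 96.7 in Rroid-deficient libraries (log2 fold change 0.84, limma adjusted p = 0.0171). In the 500 kb before the span, 4 of 15 peaks were called lower and 2 higher, and in the 500 kb after it 1 of 3 was lower and 1 higher. From 500 kb to 1 Mb after it, 2 of 44 were lower and 8 higher, with a median of 0.04. Of the 2175 peaks of chromosome 13 more than 500 kb from the span, those 44 included, 13.3% were lower. In the 100 kb on either side of Hist2, Hist3 and Hist4, 0 of 10, 1 of 14 and 1 of 14 peaks of other genes were called lower and 4 higher at each, and near Hist2 only 1 of 10 was below 0.

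**Figure D5:**
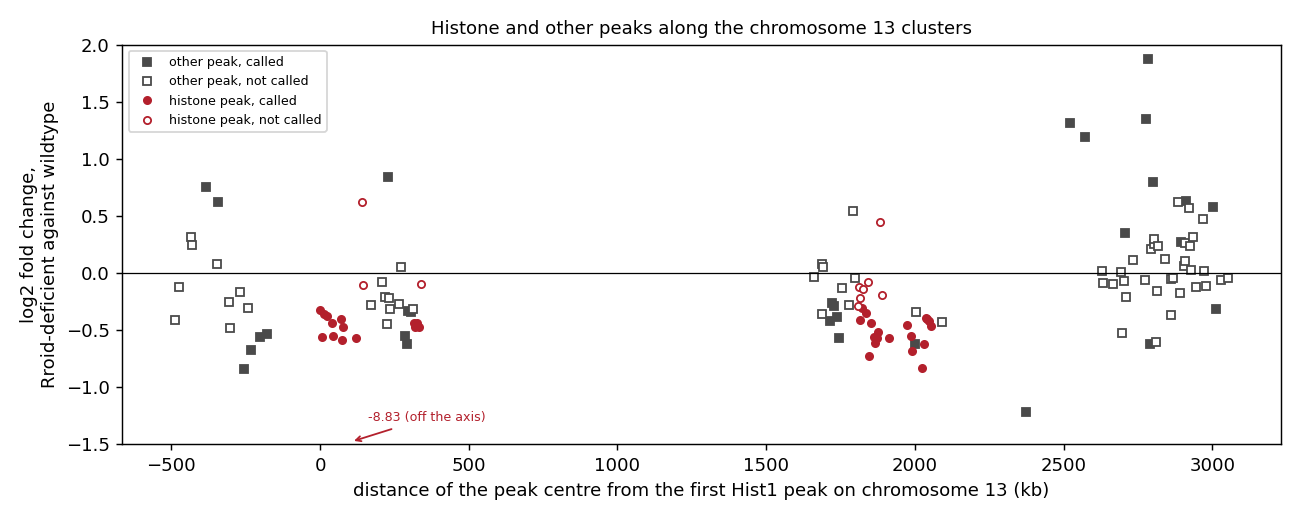
Log2 fold change of histone peaks (red) and other peaks (grey squares) by distance along chromosome 13 from the first Hist1 peak (kb); filled symbols passed an adjusted p of 0.05. Red symbols lie below 0 in both groups of stretches apart from 2 open ones, and to the right of the last histone peak other peaks scatter on both sides of 0.

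Related genes outside the clusters were counted over 4 lists, to be read beside the 12.1% lower and 13.8% higher over all peaks. Of 38 peaks at variant histone genes, whose products replace the core and linker histones at particular sites, 9 were called lower and 3 higher, with a median log2 fold change of -0.16. Of the 9 of these peaks within 1000 bp of a start, 2 were called lower and 2 higher. An intergenic peak of Cenpa, the centromeric H3 variant, went from 201.6 ± 46.1 to 403.03 ± 60.8 (SD, n = 3, log2 fold change 1.01, limma adjusted p = 0.000477). An intergenic peak of H2afz, the H2A.Z gene, at -30962 bp from the start, went from 737.03 ± 48.4 to 499.2 ± 31.7 (log2 fold change -0.56, limma adjusted p = 0.0015). A farther H2afz peak, at -86267 bp from the start, went from 343.2 ± 37.7 to 202.8 ± 37.3 (log2 fold change -0.77, limma adjusted p = 0.00203). The H2afz peak 203 bp from the start, named after its values were seen, was not called, at 89.3% of wildtype (limma adjusted p = 0.0979).

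Of 42 peaks at factors of histone transcription and mRNA processing, 6 were called lower and 3 higher (median -0.12), near or below the shares of 12.1% and 13.8% over all peaks. The 3 with the smallest p belonged to cyclin E genes and an E2F gene, which act at entry into S phase. A Ccne1 peak 17040 bp from the start rose from 160.1 ± 3.46 to 272.98 ± 13.3, and the Ccne2 promoter from 2415 ± 216.8 to 3185 ± 183.1, with log2 fold changes of 0.76 and 0.40 in limma. In the other direction, 2 Ccne1 peaks, named after their values were seen, fell to 76.8% and 73.3% of wildtype (limma adjusted p = 0.0251 and 0.0452). An E2f2 intron peak fell from 361.3 ± 63.9 to 202.99 ± 55.6 (log2 fold change -0.85, limma). Another 2 promoter peaks were named after their values were seen. The E2f1 promoter rose to 126.6% of wildtype (limma adjusted p = 0.0128), and the Slbp promoter fell to 82.9% (limma adjusted p = 0.0325).

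Of 39 peaks at histone chaperones, 3 were lower and 2 higher (median -0.10), both below the shares of 12.1% and 13.8% over all peaks. An Asf1a peak rose from 67.3 ± 29.7 to 165.03 ± 25.9 and a Set peak from 253.7 ± 37.6 to 377.1 ± 50.5, and an Anp32e peak fell from 122.1 ± 44.7 to 58.1 ± 8.27, with log2 fold changes of 1.35, 0.57 and -1.01 in limma. Of 48 peaks at replication genes, 5 were lower and 3 higher (median -0.14), again below those shares. A peak of Mcm3, a subunit of the replicative helicase, rose from 137.6 ± 17.5 to 330.4 ± 28.6 (log2 fold change 1.26, limma adjusted p = 2.08e-05). In none of the 4 lists were most peaks called lower, and the difference from the histone peaks was not tested.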

How the data were processed

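ATAC-seq was done on 3 wildtype and 3 Rroid-deficient libraries of mouse splenic NK cells. Per the submitters' processing notes, the build was mm9 and the tools were BWA, DiffBind, HOMER, MACS2 2.1.0, Trimmomatic 0.32, bcl2fastq 2.16.0 and R 3.1.1, with no role stated. How duplicates and reads with several matches were treated is not given in the sources used here. Per peak and library, the authors deposited 1 normalized signal value, with HOMER's annotation per the file headers. Within a tolerance of 0.01, 100.0% of values were whole reads times 1 step per library, and reads were recovered from them.

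Wildtype columns matched the labels by number, and Rroid-deficient columns by genotype alone. limma 3.58.1 (R 4.3.3, intensity trend) was fitted to log2(value + 1) of all peaks with 10 or more normalized reads in at least 3 libraries, which removed 0 peaks. Genotypes were compared with Benjamini-Hochberg adjustment over all peaks, and a call was an adjusted p under 0.05. The fit was also run on simulated data with the same dispersion for every peak, a simpler setting than these libraries, and no result here rests on it. edgeR 4.0.16 and DESeq2 1.42.0 on recovered reads, other scalings, pseudocounts, filters and limits, and leaving out libraries were alternatives. Members and lists were chosen with earlier results of these data known. Genes named were the 8 called peaks of smallest p in each direction, the uncalled peaks of highest mean (3) and of largest change (3), peaks under 40% of the other genotype's mean, up to 3 called peaks per related list, the neighbouring peak of smallest p in each direction, and the peaks nearest to the limit. Others are marked as chosen after their values were seen. Some peaks that this rule names in the replication list are not reported here. Sequences are from RefSeq (GRCm38.p6).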

Additional observations from a re-analysis of the deposited data

How the results depend on the processing

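The count of 35 histone peaks called lower stayed between 32 and 38 under the other scalings, tools, pseudocounts, filters and an adjusted p of 0.1, and was 28 at an adjusted p under 0.01. In 16 alternative fits, the 35 called peaks were below 0 wherever they were tested, and 44 of the 55 members were below 0 in every fit. Of the 35 calls, 13 were kept in every fit that tested the peak, the Hist1h4n peak at the floor among them. Leaving out 1 wildtype library removes the Hist1h4n peak through the filter. Leaving out 1 library in turn gave 26 to 37 histone peaks called lower (26 without wildtype library 2) and 0 to 1 called higher, and 4021 to 6305 of all peaks called lower. It gave variant genes 4 to 10 lower and 2 to 5 higher, mRNA factors 2 to 10 lower, chaperones 1 to 3 lower and 1 to 3 higher, and replication genes 1 to 3 higher. Without libraries 4 and 6 the lower calls were 14 for histone peaks, 4 for variant genes and 1 for mRNA factors, replication genes had 1 higher, and of all peaks 3654 were lower and 3716 higher. Under an adjusted p of 0.01, 3265 of all peaks were lower and 4365 higher, with 4 variant peaks, 1 mRNA factor peak, 1 chaperone peak and 3 replication peaks lower, and 1 chaperone and 1 replication peak higher. Under 0.1, 1 histone peak was higher, 5 chaperone peaks and 9 replication peaks lower. Chaperones had 1 lower peak with total-read scaling and with a mean of 100 or more. The log2 fold change of Hist2h2ac turned to 0.0348 with cyclic loess and 0.11 without libraries 4 and 6, and ran from -0.152 (without Rroid-deficient library 5) to 0.0156 (without wildtype library 2) when 1 library was left out, with 0.0086 without Rroid-deficient library 4. Without libraries 4 and 6 it also turned for Hist3h2a (0.0331) and Hist2h4 (0.0632). The causes were not tested. Total-read scaling moved the share of higher among all calls from 53.2% to 62.5%. With values summed per gene, 26 of 39 histone genes were called lower and 0 higher, against 9.70% of 16527 genes called lower. No paired analysis was possible because the Rroid-deficient columns carry no replicate number of the labels. Counting error is relatively larger at low peaks; the 13 histone peaks with a mean under 500 gave 4 calls and had a median log2 fold change of -0.19, against -0.43 at 500 or more, and the part of depth was not tested.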
